A study of Mus musculus with 14 samples.

Results

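Cyclic nucleotide phosphodiesterases were examined in R6/2 and wild-type mouse striatum. The set held 10 genes, taken by the gene symbol that the array platform gives each probe set: Pde10a, Pde1b, Pde7b, Pde1a, Pde1c, Pde2a, Pde4a, Pde4b, Pde4d and Pde8a. A named probe set was found for 9 of them, 15 probe sets out of 22626 tested. No probe set carried the symbol Pde4d, so that gene was not analysed here. Pde10a, Pde1b and Pde7b were set apart as striatum-enriched from general knowledge of the brain, and the other 6 measured genes were compared with them.

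R6/2 mice carry a transgene made of the first exon of human HTT, with an expanded CAG repeat and driven by the human promoter, and are a model of Huntington disease. The samples were 7 arrays of total RNA from R6/2 striatum and 7 from wild-type striatum, on a background of CBA and C57BL/6, at 6 weeks of age. Every mouse had been given normal saline 30 to 60 minutes before it was killed, and the mice were the controls of a pair of drug studies. Sample titles begin with M.C (4 R6/2 and 4 wild-type arrays, replicates 1 to 4 of each genotype) or Mith (3 and 3, replicates 5 to 7), and each is called a cohort here. Whether every array came from its own mouse is not stated, so the tests speak only of array-to-array spread, which may be technical, and the number of arrays limits the precision.

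Phosphodiesterases break down cyclic AMP and cyclic GMP, the second messengers made by adenylyl and guanylyl cyclases, and so set how long and how far a signal from a receptor lasts. In striatal projection neurons dopamine acts through cyclic AMP and protein kinase A. The families differ in substrate and control: Pde1 enzymes are switched on by calcium and calmodulin, Pde2a by cyclic GMP, Pde4, Pde7 and Pde8 enzymes act on cyclic AMP alone, and Pde10a acts on both messengers.

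Values are log2 probe set signals, with the arrays shifted to the same median, 7.10. Changes are log2 differences, R6/2 minus wild-type, from limma with cohort as a term, with ± for the SE. Probe sets with a p under 0.05 after Benjamini-Hochberg adjustment, taken over 22626 of them, are said to be called or to pass. Levels of different probe sets are not comparable, so only changes are compared between genes. The projection neuron markers measured (9 of 12 listed) averaged 9.25 to 9.62 in R6/2 arrays and 9.42 to 10.14 in wild-type arrays. R6/2 replicate 4 was the array least like the rest of M.C: its Spearman correlation with them averaged 0.9808, and that of each other M.C array 0.9863 to 0.9909. Wild-type replicate 5 had the lowest projection neuron markers of the wild-type arrays, 0.19 below its cohort's mean. The difference between the 3′ and 5′ probe sets of the Actb control, which grows as RNA degrades, was 0.608 ± 0.181 in R6/2 and 0.373 ± 0.143 in wild-type (SD, n = 7 each; exact two-sided permutation within cohorts, p = 0.0186). The same measure for Gapdh was 0.217 ± 0.207 in R6/2 and 0.026 ± 0.067 in wild-type (SD, n = 7 each; exact permutation p = 0.0143).

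The 3 striatum-enriched phosphodiesterases were lower in R6/2 striatum, and the other 6 measured genes did not pass the test. With the Actb or the Gapdh difference as a covariate, 0 of the 9 genes were called. These fits called few probe sets of any kind, 56 and 5 of 22626. Taking the brightest probe set of each gene, Pde10a was at 52.7% of the wild-type signal, Pde1b at 62.1% and Pde7b at 69.2%. Among all named genes 2.07% were called lower, beside 3 of 9 here, and 0.468% higher, beside 0 of 9. By probe sets, 5 of 15 were called lower, where 2.19% of all probe sets were called lower and 2.55% called either way. Below 0 at an unadjusted p under 0.05 were 11 of 15, beside 9.53% of all. In bulk tissue, fewer cells of a type and less RNA per cell cannot be told apart.

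**Figure D1:**
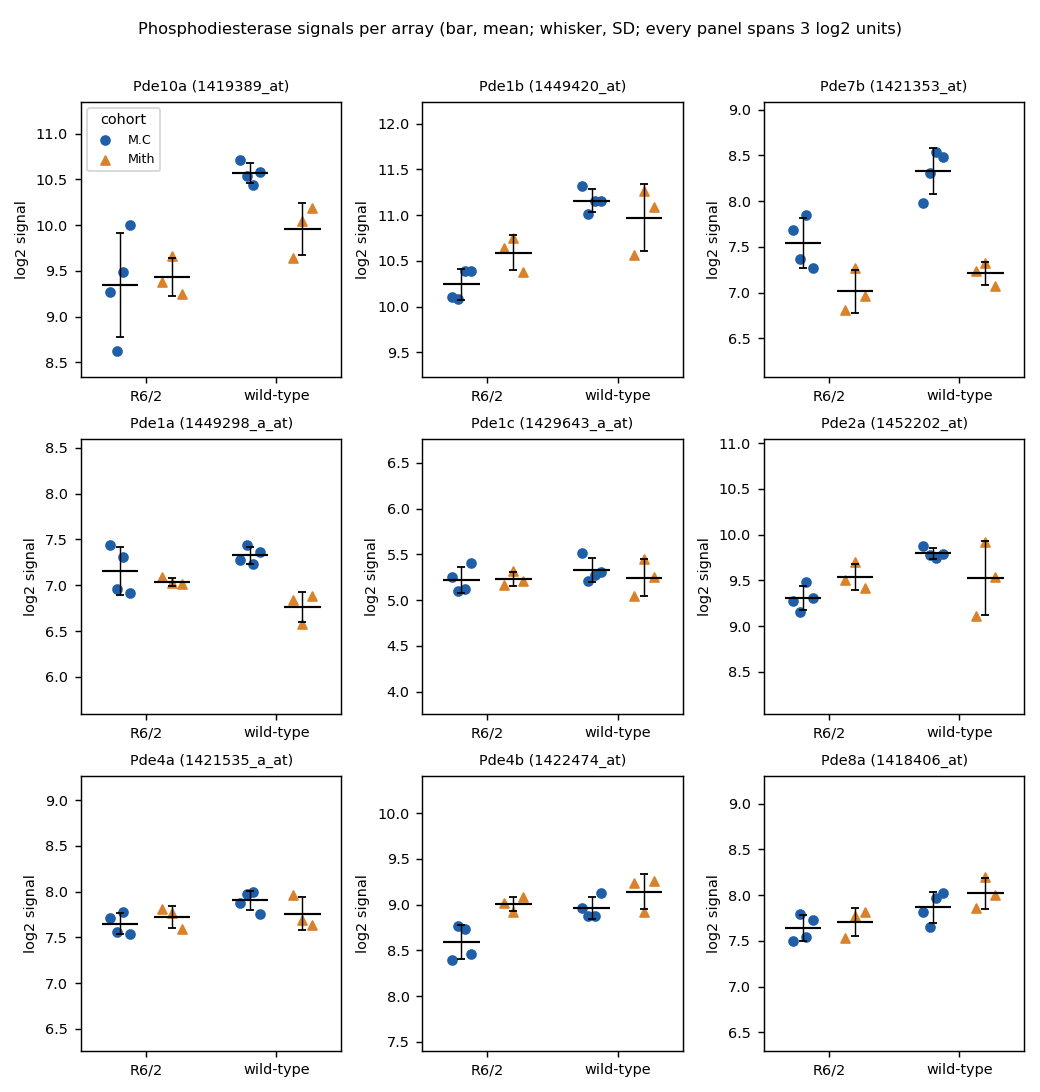
Log2 signal of the brightest probe set of each measured phosphodiesterase on every array, R6/2 at the left and wild-type at the right of each panel, circles for M.C and triangles for Mith; bars are means and whiskers SD of each genotype within a cohort. In M.C every R6/2 array lies below every wild-type array for Pde10a, Pde1b, Pde7b, Pde2a and Pde4b, while in Mith the groups overlap for these genes.

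Pde10a, which hydrolyses both messengers and is concentrated in striatal projection neurons, had the largest fall of the set. Its brightest probe set, 1419389_at, read 9.27, 8.62, 9.49 and 10.0004 in R6/2 arrays of M.C, against 10.71, 10.54, 10.44 and 10.58 in wild-type arrays of M.C. In Mith it read 9.38, 9.66 and 9.25 in R6/2 arrays, against 9.64, 10.05 and 10.19 in wild-type arrays. The M.C groups did not overlap, and in Mith R6/2 replicate 6 lay just above wild-type replicate 5. The change was -0.92 ± 0.17 (limma adjusted p = 0.00901), and the exact permutation within cohorts gave p = 0.00286, where the smallest it can give is 0.00143. It was called in each of the 14 fits that left out 1 array, from -1.02 to -0.77. With the Actb difference as a covariate it was at -0.49 ± 0.15 (limma adjusted p = 0.225), and with the Gapdh difference at -0.47 ± 0.15 (adjusted p = 0.245), and neither was called.

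The second Pde10a probe set, 1419390_at, separated the genotypes in both cohorts. It read 7.27, 7.06, 7.42 and 8.49 in R6/2 arrays of M.C, against 9.14, 9.03, 8.72 and 8.90 in wild-type arrays of M.C. In Mith it read 8.26, 8.48 and 7.91 in R6/2 arrays, against 8.66, 9.26 and 9.11 in wild-type arrays. No R6/2 array reached any wild-type array, and R6/2 replicate 4 was the highest of the R6/2 arrays. The change was -1.13 ± 0.19 (limma adjusted p = 0.00395), or 45.6% of the wild-type signal, and -0.68 ± 0.17 with the Actb covariate (adjusted p = 0.121). It was the only one of the 15 probe sets with every R6/2 array below every wild-type array in each cohort, an order that 1.05% of all probe sets had.

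The third, 1432490_a_at, which by its suffix reads more than one transcript of the gene, fell less. It read 8.59, 8.73, 9.0 and 9.15 in R6/2 arrays of M.C, against 9.58, 9.45, 9.28 and 9.13 in wild-type arrays of M.C. In Mith it read 7.89, 8.06 and 7.82 in R6/2 arrays, against 7.96, 8.23 and 8.28 in wild-type arrays. The genotypes overlapped in both cohorts, and Mith arrays of either genotype lay below every M.C array. The change was -0.38 ± 0.10 (limma adjusted p = 0.0412). Against the brightest probe set this was smaller by 0.54 log2 units, exact permutation p = 0.00143 (the smallest possible) and adjusted p = 0.00857 over the 6 pairs of probe sets of a gene. The difference was 0.73 in M.C and 0.29 in Mith. For 1419390_at against the brightest probe set the difference was -0.21 (exact permutation p = 0.0614, adjusted p = 0.123).

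Pde1b, a calcium- and calmodulin-activated enzyme abundant in striatum, had a single probe set. It read 10.11, 10.08, 10.39 and 10.39 in R6/2 arrays of M.C, against 11.32, 11.01, 11.15 and 11.15 in wild-type arrays of M.C. In Mith it read 10.64, 10.75 and 10.38 in R6/2 arrays, against 10.56, 11.26 and 11.09 in wild-type arrays. Wild-type replicate 5, at 10.56, lay among the R6/2 arrays, and the other 6 wild-type arrays lay above every R6/2 array. The change was -0.69 ± 0.12 (limma adjusted p = 0.00466; exact permutation p = 0.00429). It was called in each of the 14 fits with 1 array left out, from -0.79 to -0.64. It was not called with the Actb covariate (-0.52 ± 0.14, limma adjusted p = 0.149) or the Gapdh covariate (-0.52 ± 0.14, adjusted p = 0.18).

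Pde7b, a cyclic AMP-specific enzyme, was lower in R6/2 over both cohorts. Probe set 1421353_at read 7.68, 7.37, 7.85 and 7.27 in R6/2 arrays of M.C, against 7.98, 8.31, 8.54 and 8.48 in wild-type arrays of M.C. In Mith it read 6.81, 7.27 and 6.96 in R6/2 arrays, against 7.24, 7.32 and 7.07 in wild-type arrays. The genotypes were apart in M.C and overlapped in Mith, where wild-type arrays were below every wild-type array of M.C. The change was -0.53 ± 0.13 (limma adjusted p = 0.0322; exact permutation p = 0.00571). Of the 14 fits that left out 1 array, 6 lost the call: those without R6/2 replicate 1, 2 or 7 or wild-type replicate 2, 3 or 4, with adjusted p between 0.0513 and 0.0805 there. It was not called with the Actb covariate (-0.56 ± 0.16, limma adjusted p = 0.194) or the Gapdh covariate (-0.43 ± 0.16, adjusted p = 0.337). Its other probe set, 1450213_at, was at -0.58 ± 0.16 and did not pass (adjusted p = 0.0636).

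The upstream sequences of these 3 genes are shown because these are the members called lower. Each is the 250 bases before a RefSeq start (GRCm38.p6), written 5′ to 3′ on the gene's strand: chr17:8801495-8801744 (plus) for Pde10a, chr15:103502784-103503033 (plus) for Pde1b and chr10:20548329-20548578 (minus) for Pde7b. Pde10a and Pde1b have other annotated starts, which are not printed. Capitals mark matches to an Egr-type motif (GCGNGGGCG) or an Sp1-type motif (GGGCGG) on either strand. The cyclic AMP response element (TGACGTCA) and its core (TGACG, held within it) were searched in the same way.
Pde10a: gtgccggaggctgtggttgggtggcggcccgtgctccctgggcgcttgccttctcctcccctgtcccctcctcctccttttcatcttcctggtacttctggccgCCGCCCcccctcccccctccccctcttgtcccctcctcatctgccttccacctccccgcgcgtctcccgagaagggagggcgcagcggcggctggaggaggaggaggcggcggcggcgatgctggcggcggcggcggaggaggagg
Pde1b: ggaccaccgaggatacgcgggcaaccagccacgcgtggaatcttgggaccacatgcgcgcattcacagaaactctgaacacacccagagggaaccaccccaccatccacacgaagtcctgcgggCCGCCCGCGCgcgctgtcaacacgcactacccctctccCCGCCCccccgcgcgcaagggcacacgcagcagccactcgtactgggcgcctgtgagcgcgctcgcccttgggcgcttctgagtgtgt
Pde7b: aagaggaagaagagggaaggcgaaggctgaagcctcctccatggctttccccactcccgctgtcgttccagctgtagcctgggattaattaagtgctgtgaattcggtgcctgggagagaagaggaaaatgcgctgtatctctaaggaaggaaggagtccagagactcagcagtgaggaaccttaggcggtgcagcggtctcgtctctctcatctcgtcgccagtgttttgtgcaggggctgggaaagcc
The Pde10a window held 1 Sp1-type match. The Pde1b window held 1 Egr-type match, which overlaps 1 of its 2 Sp1-type matches, and the Pde7b window held none of the motifs. The full response element was in 0 of the 27 windows of all 10 genes, beside 1.55% of 32851 RefSeq windows. The core was in 0 of the 6 windows of these 3 genes and in 4 of the 27, beside 17.8% of RefSeq windows. Egr-type letters were in 1 of the 6 windows and 4.7% of all windows, and Sp1-type letters in 2 of the 6 and 32.7% of all. These matches describe letters and are not evidence of binding.

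Among the other members, the Pde1 paralogues were not called. Pde1a, which favours cyclic GMP, read 7.44, 6.96, 7.31 and 6.91 in R6/2 arrays of M.C, against 7.28, 7.44, 7.23 and 7.36 in wild-type arrays of M.C. In Mith it read 7.09, 7.02 and 7.01 in R6/2 arrays, against 6.84, 6.58 and 6.88 in wild-type arrays. The genotypes overlapped in M.C, and in Mith every R6/2 array was above every wild-type array. The change over both cohorts was 0.02 ± 0.10 (95% interval -0.18 to 0.22, adjusted p = 0.949). Pde1c, which acts on both messengers, was at -0.07 ± 0.07 (95% interval -0.22 to 0.08) by its brighter probe set, 1429643_a_at, which ran from 5.10 to 5.41 in R6/2 arrays and from 5.04 to 5.51 in wild-type arrays. Its other probe set, 1426036_a_at, was at 0.09 ± 0.05 (adjusted p = 0.424).

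Pde2a, the enzyme stimulated by cyclic GMP, passed in M.C and not over both cohorts. It read 9.28, 9.16, 9.48 and 9.31 in R6/2 arrays of M.C, against 9.88, 9.78, 9.74 and 9.79 in wild-type arrays of M.C. In Mith it read 9.50, 9.70 and 9.42 in R6/2 arrays, against 9.11, 9.92 and 9.54 in wild-type arrays. Wild-type replicate 5 was the lowest array of all, and wild-type replicate 6 the highest. The change over both cohorts was -0.27 ± 0.11 (limma adjusted p = 0.237), and without wild-type replicate 5 it was -0.38 ± 0.08 and called (adjusted p = 0.0152).

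None of the other cyclic AMP-specific members was called. By their brightest probe sets, the exact permutation within cohorts, unadjusted, gave p = 0.01 for Pde8a, 0.0129 for Pde4b and 0.05 for Pde4a. The same exact permutation gave p = 0.0629 for Pde2a, 0.37 for Pde1c and 0.861 for Pde1a. Pde8a, a high-affinity enzyme, was below wild-type in both cohorts by both probe sets: 1418406_at was at -0.27 ± 0.08 (limma adjusted p = 0.0753) and 1418407_at at -0.20 ± 0.06 (adjusted p = 0.0703). The first averaged 7.64 ± 0.14 in R6/2 and 7.86 ± 0.17 in wild-type in M.C (SD, n = 4 each), and 7.70 ± 0.15 in R6/2 and 8.02 ± 0.17 in wild-type in Mith (SD, n = 3 each). Its Mith groups did not overlap, and its M.C groups did.

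Pde4b and Pde4a, enzymes that rolipram inhibits, also fell short of a call. By 1422474_at, Pde4b read 8.4, 8.77, 8.73 and 8.46 in R6/2 arrays of M.C, against 8.96, 8.88, 8.88 and 9.13 in wild-type arrays of M.C. In Mith it read 9.02, 8.92 and 9.08 in R6/2 arrays, against 9.24, 8.92 and 9.26 in wild-type arrays. The M.C groups did not overlap and the Mith groups did. Its change was -0.27 ± 0.08 (limma adjusted p = 0.0855), and it was at -0.04 ± 0.08 by 1422473_at. Probe set 1422473_at averaged 8.89 ± 0.21 in R6/2 and 9.09 ± 0.10 in wild-type in M.C (SD, n = 4 each), and 8.51 ± 0.05 in R6/2 and 8.33 ± 0.05 in wild-type in Mith (SD, n = 3 each), where R6/2 lay above wild-type without overlap. The changes by its 2 probe sets differed by 0.23 (exact permutation p = 0.02, adjusted p = 0.06). Pde4a was at -0.16 ± 0.07 (limma adjusted p = 0.273), and ran from 7.54 to 7.81 in R6/2 arrays and from 7.63 to 8.0 in wild-type arrays.

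**Figure D2:**
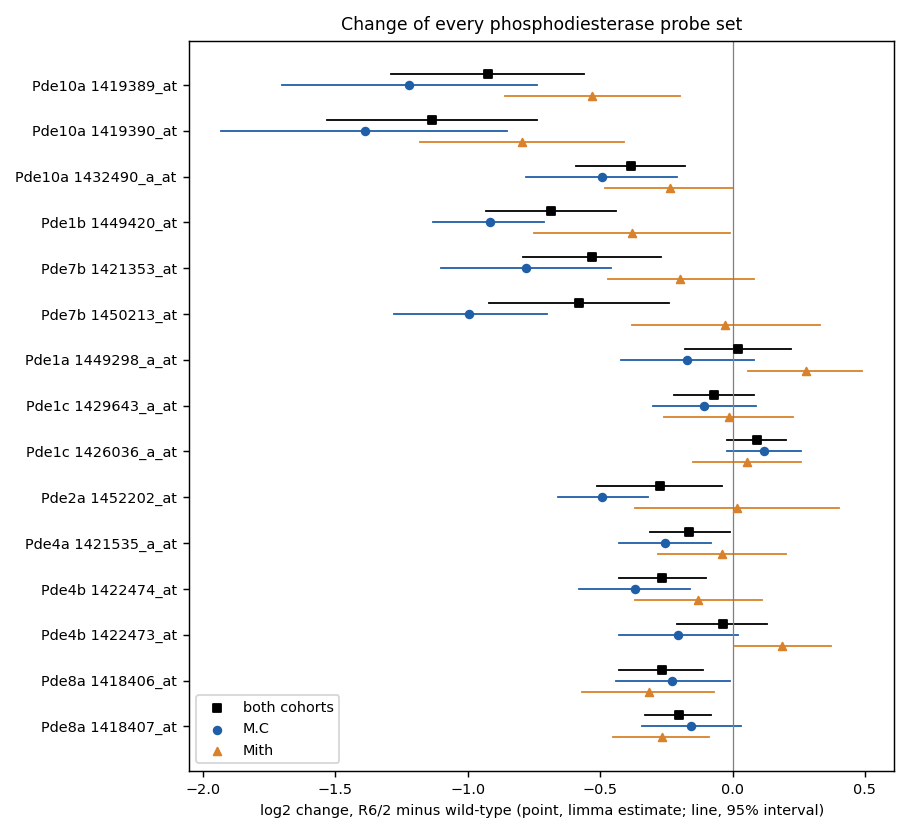
Log2 change, R6/2 minus wild-type, of each of the 15 phosphodiesterase probe sets: squares for both cohorts, circles for M.C and triangles for Mith, with 95% intervals from limma. The 6 probe sets of Pde10a, Pde1b and Pde7b run from -1.13 to -0.38 over both cohorts, and the 9 others from -0.27 to 0.09.

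The striatum-enriched genes were then set against each of the others within the same arrays. For each of 18 pairs, the difference of the log2 signals was compared between genotypes by exact two-sided permutation within cohorts, 1400 arrangements, adjusted over the 18. The difference was below 0 in 18 of 18 pairs, meaning a larger fall of the striatum-enriched gene, and 15 of 18 passed at an adjusted p under 0.05. The pairs share genes and arrays, so these counts are not of independent tests. Pde10a passed against 6 of 6 genes. Its differences ran from -0.95 against Pde1a (exact permutation p = 0.00143, adjusted p = 0.00514) to -0.65 against Pde2a (the same p-values). Pde1b passed against 6 of 6, including its own relatives Pde1a (-0.71, exact permutation p = 0.00286, adjusted p = 0.00735) and Pde1c (-0.62, exact permutation p = 0.00143, adjusted p = 0.00514).

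Pde7b passed against 3 of 6. It fell more than Pde1a by 0.55 (exact permutation adjusted p = 0.00735), than Pde1c by 0.46 (exact permutation adjusted p = 0.0274) and than Pde4a by 0.37 (exact permutation adjusted p = 0.0236). The differences from Pde2a (-0.26, exact permutation adjusted p = 0.106), Pde4b (-0.26, adjusted p = 0.127) and Pde8a (-0.27, adjusted p = 0.166) did not pass. The sign held in 18 of 18 pairs in M.C and in 17 of 18 in Mith, the exception being Pde7b against Pde8a at 0.12. The median change was -0.69 over the 3 striatum-enriched genes and -0.21 over the other 6, beside 0.01 over all named genes.

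**Figure D3:**
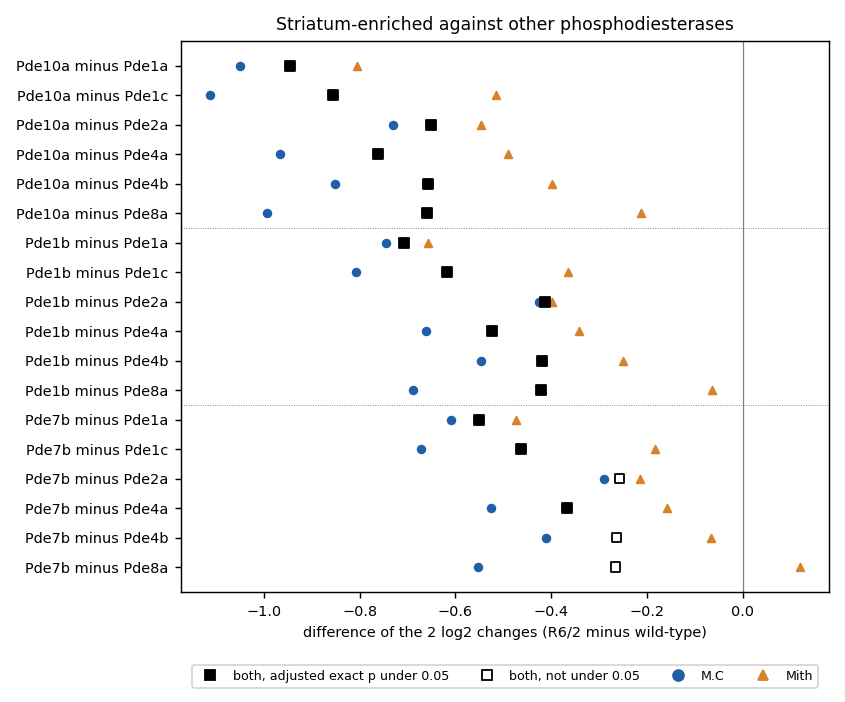
Difference between the log2 changes (R6/2 minus wild-type) of a striatum-enriched phosphodiesterase and another one, for 18 pairs; squares are both cohorts, filled where the adjusted exact p is under 0.05, circles M.C and triangles Mith. The squares lie between -0.95 and -0.26, and 15 of 18 are filled.

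By cohort, the estimated falls of the striatum-enriched genes and Pde2a were larger in M.C, although no difference between cohorts passed. In M.C 4 of 9 genes were called lower, Pde2a being the addition, beside 2.11% of all named genes, and 6 of 15 probe sets, beside 2.31% of all. Pde10a was at 42.9% of wild-type (-1.22 ± 0.22, limma adjusted p = 0.0139), Pde1b at 53% (-0.92 ± 0.10, adjusted p = 0.00144), Pde7b at 58.2% (-0.78 ± 0.15, adjusted p = 0.0169) and Pde2a at 71.1% (-0.49 ± 0.08, adjusted p = 0.00851). The Pde10a call in M.C was lost without R6/2 replicate 1 (adjusted p = 0.0605) and that of Pde7b without wild-type replicate 3 or 4 (adjusted p = 0.0617 and 0.0663). In M.C, every R6/2 array lay below every wild-type array for 7 of 15 probe sets, beside 6.33% of all.

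In Mith limma called 0 of the 22626 probe sets, and 2008 (8.87%) had an unadjusted p under 0.05. Of the 15 phosphodiesterase probe sets, 5 were below 0 with an unadjusted p under 0.05, beside 4.05% of all, and 2 were above 0, beside 4.82%. The 5 were 1419389_at and 1419390_at of Pde10a, the Pde1b probe set and both probe sets of Pde8a. Pde10a was at -0.53 ± 0.15 by 1419389_at and at -0.80 ± 0.17 by 1419390_at, Pde1b at -0.38 ± 0.17, Pde7b at -0.20 ± 0.12 and Pde2a at 0.02 ± 0.17. Pde8a, not a striatum-enriched member, was at -0.32 ± 0.11 by 1418406_at and at -0.27 ± 0.08 by 1418407_at. Pde1a was at 0.28 ± 0.10 (limma adjusted p = 0.472). Every R6/2 array lay below every wild-type array for 3 of 15 probe sets, beside 6.34% of all, and above for 2, beside 6.61%. The 3 were Pde10a 1419390_at and both probe sets of Pde8a.

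The difference between cohorts was tested as an interaction, Mith minus M.C, and limma called 0 of 22626 probe sets, with 2213 (9.78%) at an unadjusted p under 0.05. Among the 15 phosphodiesterase probe sets, 7 were above 0 at an unadjusted p under 0.05, beside 6.17% of all, and the adjusted p ran from 0.268 to 0.864. Pde10a 1419389_at differed by 0.69 ± 0.31, Pde1b by 0.54 ± 0.20, Pde2a by 0.51 ± 0.19 and Pde1a by 0.45 ± 0.16. Also among the 7 were Pde7b 1421353_at (0.58 ± 0.215) and Pde4b 1422473_at (0.39 ± 0.14). The other Pde10a probe sets were not, with 1419390_at at 0.59 ± 0.36 and 1432490_a_at at 0.26 ± 0.19. The largest difference and the smallest adjusted p belonged to Pde7b 1450213_at (0.97 ± 0.23, limma adjusted p = 0.268). It read 6.6, 6.13, 6.46 and 6.21 in R6/2 arrays and 7.0, 7.55, 7.32 and 7.50 in wild-type arrays of M.C. In Mith it read 6.24, 6.19 and 5.85 in R6/2 arrays and 5.80, 6.45 and 6.11 in wild-type arrays. R6/2 arrays of the 2 cohorts overlapped, while every wild-type array of M.C lay above every wild-type array of Mith.

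Pde10a signals by 1419389_at ran in the reverse order of the Actb differences among R6/2 arrays of M.C and wild-type arrays of Mith. They did not among wild-type arrays of M.C or R6/2 arrays of Mith. In M.C, Pde10a was 8.62 in R6/2 replicate 2, whose Actb difference was 0.852, and 10.0004 in R6/2 replicate 4, whose Actb difference was 0.277. Wild-type replicate 1 had the largest Actb difference of the M.C wild-type arrays, 0.403, and their highest Pde10a signal, 10.71. Of the Mith R6/2 arrays, replicate 6 had the highest Pde10a signal, 9.66, with an Actb difference of 0.64, between those of the others. Wild-type replicate 5 had the largest Actb difference of the wild-type arrays, 0.613, and their lowest Pde10a and Pde1b signals. The fit with the Actb covariate called 56 of 22626 probe sets and that with the Gapdh covariate 5, and neither called any of the 15 phosphodiesterase probe sets. The median over the 3 genes minus that over the other 6 was -0.34 and -0.33 with these covariates, beside -0.47 without. The part of RNA quality in the falls was not tested.

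**Figure D4:**
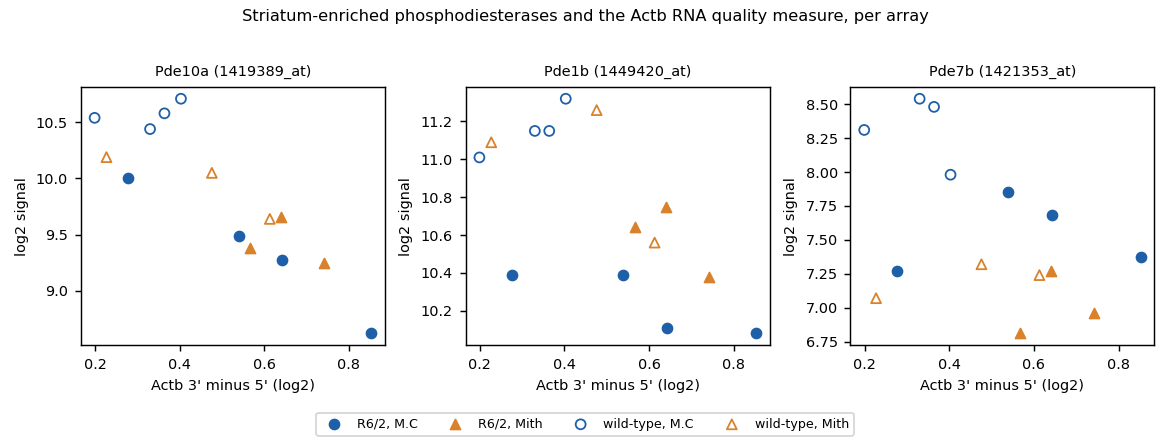
Log2 signal of Pde10a, Pde1b and Pde7b against the Actb 3′ minus 5′ difference on each array; filled symbols are R6/2, open symbols wild-type, circles M.C and triangles Mith. The lowest Pde10a signal, 8.62, is at the largest Actb difference, 0.852. Among M.C wild-type arrays the highest Pde10a signal, 10.71, is at their largest Actb difference, 0.403. For Pde7b the lowest M.C array, R6/2 replicate 4 at 7.27, has the smallest R6/2 Actb difference, 0.277.

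Without R6/2 replicate 4 and wild-type replicate 5, a choice made after the data were seen, 5 of 9 members were called lower, with Pde2a (-0.37 ± 0.08, limma adjusted p = 0.0192) and Pde8a (-0.31 ± 0.08, adjusted p = 0.0313) added. That fit called 1353 of all 22626 probe sets, beside 578 with all arrays. Pde10a was then at -1.13 ± 0.15, Pde1b at -0.81 ± 0.09 and Pde7b at -0.48 ± 0.13, and 14 of 18 pairs passed. R6/2 replicate 4 had the smallest Actb difference of the R6/2 arrays, 0.277. Wild-type replicate 5 had the largest of the wild-type arrays, 0.613. The part of RNA quality in these changes was not tested.

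Most markers of projection neurons moved with these genes. Of 9 measured, 4 were called lower and 0 higher, with a median of -0.43, -0.60 in M.C and -0.19 in Mith. Among all named genes 2.07% were called lower and 0.468% higher. Of the 9 markers 8 were below 0, and Tac1 was at 0.07 ± 0.10 (limma adjusted p = 0.787). Oligodendrocyte markers were lower too, 5 of 7 called with a median of -0.35, and their mean level ran from 9.26 to 10.24 in R6/2 arrays and from 9.53 to 10.54 in wild-type arrays. Thalamic markers, 0 of 7 called, had a median of -0.06 in M.C and -0.56 in Mith, with mean levels from 7.24 to 8.08 in R6/2 arrays and from 7.33 to 8.69 in wild-type arrays. Astrocyte markers, 0 of 8 called, had a median of -0.21 and levels of 8.49 to 8.96 in R6/2 arrays and 8.80 to 9.07 in wild-type arrays. Microglial markers (0 of 8 called) ran from 7.92 to 8.08 in R6/2 arrays and 7.95 to 8.20 in wild-type arrays, vessel markers (0 of 8) from 7.47 to 7.80 in R6/2 arrays and 7.63 to 7.76 in wild-type arrays, and cortical markers (0 of 6) from 5.65 to 5.85 in R6/2 arrays and 5.58 to 5.81 in wild-type arrays. The part of these in the phosphodiesterase falls was not tested.

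Genes whose signal followed Pde10a and Pde1b most closely were ranked by Pearson's r over the 14 arrays after each cohort's mean was taken away. These are descriptions, since the arrays share genotype and quality. For Pde10a they were Kcnip2, a potassium channel partner (r = 0.978), Homer1, a postsynaptic scaffold (0.971), Syt6, a synaptotagmin (0.962), Fjx1 (0.955) and Akap9, an anchor of protein kinase A (0.954). For Pde1b they were Ppp1r1b, the phosphatase inhibitor regulated by dopamine and cyclic AMP (0.979), Smpd3, a sphingomyelinase (0.975), Cx3cl1, the chemokine fractalkine (0.973), Ngef, an exchange factor (0.972), and Grik2, a kainate receptor subunit (0.971). Pde10a and Pde1b followed each other at r = 0.924, and Pde1b followed Pde2a at 0.879 and Pde7b at 0.742, but Pde1a at 0.047.

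Over both cohorts, 1 other gene of the cyclic nucleotide pathway passed. Of 86 genes in 9 lists, 60 had a named probe set, and 1 was called lower and 0 higher, or 1.67% lower beside 2.07% of all named genes. Their median change was -0.01. The one called was Akap9, at 71.3% of wild-type (-0.49 ± 0.09, limma adjusted p = 0.0069). M.C gave -0.61 and Mith -0.32, and its other probe set was at -0.38 over both. With the Actb covariate it was at -0.27 (adjusted p = 0.181). Within M.C, 5 of the 60 were called lower and 0 higher, or 8.33% lower beside 2.11% of all named genes: Akap9, Gucy1a1, Gucy1b1, Pkig and Prkar1a.

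Of 9 measured phosphodiesterases outside the set 0 were called, with a median of 0.00, and the smallest p belonged to Pde9a, a cyclic GMP-specific enzyme, at -0.09 ± 0.07 (limma adjusted p = 0.608), and Pde6a, of rod photoreceptors, at 0.06 ± 0.05 (adjusted p = 0.627). Pde8b had no probe set with its symbol.

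Of the enzymes that make the messengers, 0 of 7 adenylyl cyclases were called, with a median of -0.04 and Adcy7 (-0.13 ± 0.06) and Adcy3 (-0.09 ± 0.05) of smallest p. Adcy5, the main striatal cyclase, had no probe set with its symbol. Of 6 guanylyl cyclases 0 were called, with a median of -0.08. Gucy1a1, a subunit of the soluble enzyme that senses nitric oxide, was at -0.26 ± 0.07 (limma adjusted p = 0.0673), and Npr2, a natriuretic peptide receptor, at 0.19 ± 0.06 (adjusted p = 0.124). Within M.C both measured subunits of the soluble enzyme were called lower, Gucy1a1 at -0.36 (adjusted p = 0.0366) and Gucy1b1 at -0.45 (adjusted p = 0.0177), against -0.12 and 0.07 in Mith.

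Further along the pathway, 0 of 7 G protein subunits were called, with Gnas at -0.27 ± 0.11 and Gnao1 at -0.22 ± 0.09. Gnal and Gng7, also listed, had no probe set with their symbol, nor had Prkar2b of the protein kinase A list. Of 8 protein kinase A subunits and inhibitors 0 were called, with Pkig, an inhibitor, at -0.25 ± 0.07 (limma adjusted p = 0.0797) and Prkar1a, a regulatory subunit, at -0.26 ± 0.08 (adjusted p = 0.1). In M.C these were called, at -0.42 (adjusted p = 0.0274) and -0.40 (adjusted p = 0.0189). These counts go by the brightest probe set of a gene. Prkacb, a kinase subunit, was at -0.01 by that probe set over both cohorts and at -0.54 by its other one. Protein kinase G genes (Prkg1 at 0.08 and Prkg2 at 0.02), channels and other effectors (0 of 9, with Hcn2 at -0.14 and Cnga2 at 0.17) and transcription factors that answer cyclic AMP (0 of 6, with Crebbp at 0.08 and Crtc2 at 0.05) were not called.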

How the data were processed

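The authors deposited log2 probe set signals for 22690 probe sets on 14 arrays. The scale was read from the values, 2.96 to 14.52 with none missing, and the summary method and normalization are not given in the sources used here. Control probe sets, 64 in number, entered no test. Array medians ran from 7.07 to 7.17, and each array was centred on their common value. Gene symbols were those of the platform annotation, updated by gene ID against a RefSeq table: 20380 probe sets carried 1 symbol, 691 several and 1555 none, giving 12393 genes. For each gene the probe set with the highest mean stood for it, passing over cross-hybridising ones where it had another.

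Genotype was tested with limma 3.58.1 in R 4.3.3 with cohort as a term, within each cohort, and as an interaction, two-sided, with Benjamini-Hochberg adjustment over 22626 probe sets. Pairs of genes or probe sets were tested by exact permutation of genotype within cohorts. The fit was tested on simulated data. Promoter sequences are from RefSeq, GRCm38.p6, which held a window for each of the 10 genes.

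The members, lists and tests were chosen with earlier results of these data known. Genes outside the set were named by a rule: up to 3 called genes of smallest p in a pathway list or else 2, and the 5 genes nearest Pde10a and Pde1b. The marker lists were not covered by this rule. Gucy1b1, Tac1 and Prkacb were named after their values were seen. Adcy5, Gnal, Gng7 and Prkar2b, which have no values, are named outside the rule. Alternatives were the values as deposited without centring, quantile normalization, no cohort term, other variance models, array weights and quality covariates. Others were a filter on dim probe sets, a stricter threshold, averaged probe sets per gene and leaving out single arrays.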

Additional observations from a re-analysis of the deposited data

Results flagged for a closer look

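The Pde1b signal of wild-type replicate 5 stood far from the other wild-type arrays. After each cohort's mean was taken away it was at -0.22, and the rest, 6 arrays, ran from 0.31 to 0.62, so that its gap took up 0.627 of the group's range. It was the 1 such array among 60 groups of probe set values looked at. Chance gives about 1 in every 20 groups, so 1 in 60 is no more than chance gives. On the same array the Actb 3′ minus 5′ difference was 0.613, the largest of the wild-type arrays, and projection neuron markers were 0.19 below the cohort's mean. The part of these in the Pde1b value was not tested. Without this array Pde1b was at -0.79 ± 0.09 (limma adjusted p = 0.000225).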

How the results depend on the processing

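The count of 578 called probe sets fell to 100 without the cohort term, 56 with the Actb covariate, 5 with the Gapdh covariate and 131 at an adjusted p under 0.01, and was 1333 with array weights and 1353 without R6/2 replicate 4 and wild-type replicate 5. With 1 array left out it ran from 280 to 879, and the arrays that moved it by over 1.5 times were wild-type replicates 3 (280), 4 (295), 7 (310), 1 (370) and 5 (879) and R6/2 replicates 1 (295), 7 (341) and 3 (384). The 3 members called lower became 0 with either covariate, 5 with array weights (Pde4b and Pde8a added) and 5 without both arrays, and 2 to 4 with 1 array left out. The striatum-enriched median minus the other ran from -0.62 to -0.33 over the alternatives, and from 13 to 15 of 18 pairs passed with 1 array left out, or 17 with probe sets averaged per gene. Pde10a was called at -0.87 and Pde1b at -0.64 after quantile normalization, which ended the Pde10a call in M.C (-1.12, adjusted p = 0.0614), and Pde7b lost its call without the cohort term (adjusted p = 0.476).

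Signs turned only for small values: Pde1a ran from -0.04 to 0.08 with 1 array left out, and Pde1c was at 0.01 by the mean of its probe sets. In Mith with 1 array left out Pde1c ran from -0.12 to 0.09, Pde2a from -0.19 to 0.21 and Pde4a from -0.10 to 0.06, and Pde2a was at -0.02 after quantile normalization. The causes were not tested. Pde1c was too dim for the filter on dim probe sets. No paired analysis was possible because the replicate numbers are an order of listing and pair no arrays.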
